A study of Mus musculus with 6 samples.

Results

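The miR-30 family was examined in white adipose tissue (WAT) of ApoE-deficient mice, in 7 of the 707 mature miRNAs listed in the deposited counts. The members were taken by their mature accessions: miR-30a-5p (MIMAT0000128), miR-30b-5p (MIMAT0000130), miR-30c-5p (MIMAT0000514), miR-30d-5p (MIMAT0000515), miR-30e-5p (MIMAT0000248), miR-30a-3p (MIMAT0000129) and miR-30e-3p (MIMAT0000249). All 7 had counts in every library, and all 7 passed the filter on low counts. The study compared 3 libraries from male mice kept under chronic intermittent hypoxia (CIH) for 8 weeks with 3 from control mice. In each CIH cycle oxygen fell from 21% to about 6% within 60 s and then returned. Mice of both groups lack apolipoprotein E, a ligand that clears lipoproteins from the blood, so the comparison is of CIH on that background. No group with intact ApoE was analysed here, and the fat depot and the age of the mice are not given in the sources used here. How many mice gave each library is not given either, so the p-values below measure only the spread between these libraries. The counts are those of bulk tissue.

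MicroRNAs are cut from hairpin precursors and guide Argonaute proteins to messenger RNAs, mainly through the seed, the bases near their 5′ end. Of the 2 arms of a hairpin, one is usually kept and the other is mostly degraded. The miR-30-5p miRNAs are known as promoters of fat cell differentiation. miR-30a-5p and miR-30d-5p repress Runx2, a transcription factor of bone formation, and miR-30b-5p and miR-30c-5p repress Nrip1, a corepressor that limits thermogenic genes. miR-30e-5p is known to repress Lrp6, a Wnt coreceptor, in the choice between fat and bone cells. These roles are background and were not measured here.

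Mature sequences of 5 of the 7 members were taken from a RefSeq table on GRCm38.p6. They are shown because reads of such similar miRNAs must be told apart by very few bases. The capitals mark the seed, bases 2 to 8 counted from the 5′ end.
miR-30a-5p: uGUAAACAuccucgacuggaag
miR-30e-5p: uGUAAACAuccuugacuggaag
miR-30c-5p: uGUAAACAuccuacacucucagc
miR-30a-3p: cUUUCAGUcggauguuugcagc
miR-30e-3p: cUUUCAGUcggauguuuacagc
The 3 printed 5p sequences share the seed GUAAACA and their first 12 bases. Counted from the 5′ end, miR-30a-5p and miR-30e-5p differ only by C13U, and miR-30a-3p and miR-30e-3p only by G18A. That table has 1679 mature names, but it is not complete and has no entry for miR-30b or miR-30d. In it the 5p seed was also found in miR-384-5p, and the 3p seed UUUCAGU in the 2 printed 3p arms. How reads with a mismatch were assigned between members is not given in the sources used here, so a count of one close member may hold reads of another. No other miRNA had the same counts as a member in all 6 libraries.

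Both arms of miR-30a and of miR-30e were members, so their hairpins are shown with the 5p and 3p arms in capitals.
Mir30a: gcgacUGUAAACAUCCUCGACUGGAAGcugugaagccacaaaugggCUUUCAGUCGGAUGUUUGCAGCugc
Mir30e: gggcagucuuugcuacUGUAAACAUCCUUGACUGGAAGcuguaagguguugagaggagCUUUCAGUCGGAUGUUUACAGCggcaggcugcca
Mir30a lies on chromosome 1 (23272269 to 23272339, plus strand) and overlaps no gene of GENCODE release M21 other than miRNA genes. Mir30c-2 lies 19.4 kb downstream on the same strand (23291701 to 23291784), in an exon of the noncoding gene Gm27028. Mir30e lies on chromosome 4 (120772606 to 120772697, minus strand) and Mir30c-1 lies 2.98 kb from it (120769534 to 120769622, minus strand), both in an intron of Nfyc, which encodes a subunit of the transcription factor NF-Y. The same miR-30c-5p sequence is made from Mir30c-1 and Mir30c-2, so its counts cannot be divided between the 2 loci.

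The libraries held between 636963 and 4783768 counts, and control 2 was the deepest. Control 1 and control 2 had the fewest miRNAs with counts, 487 and 552, where the other libraries had 631 to 649. The cause was not tested. The 5 most abundant miRNAs outside the family took between 34.0% and 65.7% of a library. The level of any member therefore depends on how the libraries are scaled, and TMM factors, which correct library totals for composition, ran from 0.575 in control 1 to 1.45 in CIH 3. Levels below are TMM-normalized CPM, the count divided by the scaled library size. Counting error was small: the 95% Wilson interval of a member's share of its library was at most 0.0393 percentage points to either side of it. Intervals of this kind cover counting error only, since PCR copies are not independent molecules.

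miR-30a-5p dominated the family, and one control library held most of it. Its counts were 22638, 1119320 and 22483 in controls 1, 2 and 3, and 45637, 18331 and 16725 in CIH 1, 2 and 3. These counts were 1.66%, 23.4% and 2.84% of the control libraries and 2.89%, 2.49% and 2.63% of the CIH libraries. It was the second most abundant miRNA of control 2 and ranked between 6 and 10 in the other 5 libraries. On the TMM-normalized scale the level was 28802, 270053 and 20266 CPM in the controls and 36650, 19806 and 18140 CPM in the CIH libraries. Control 2 stood 7.37-fold above the next highest library, a CIH library, and without it the 5 others lay within 2.02-fold of each other. The other 2 controls lay inside the range of the CIH libraries.

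**Figure D1:**
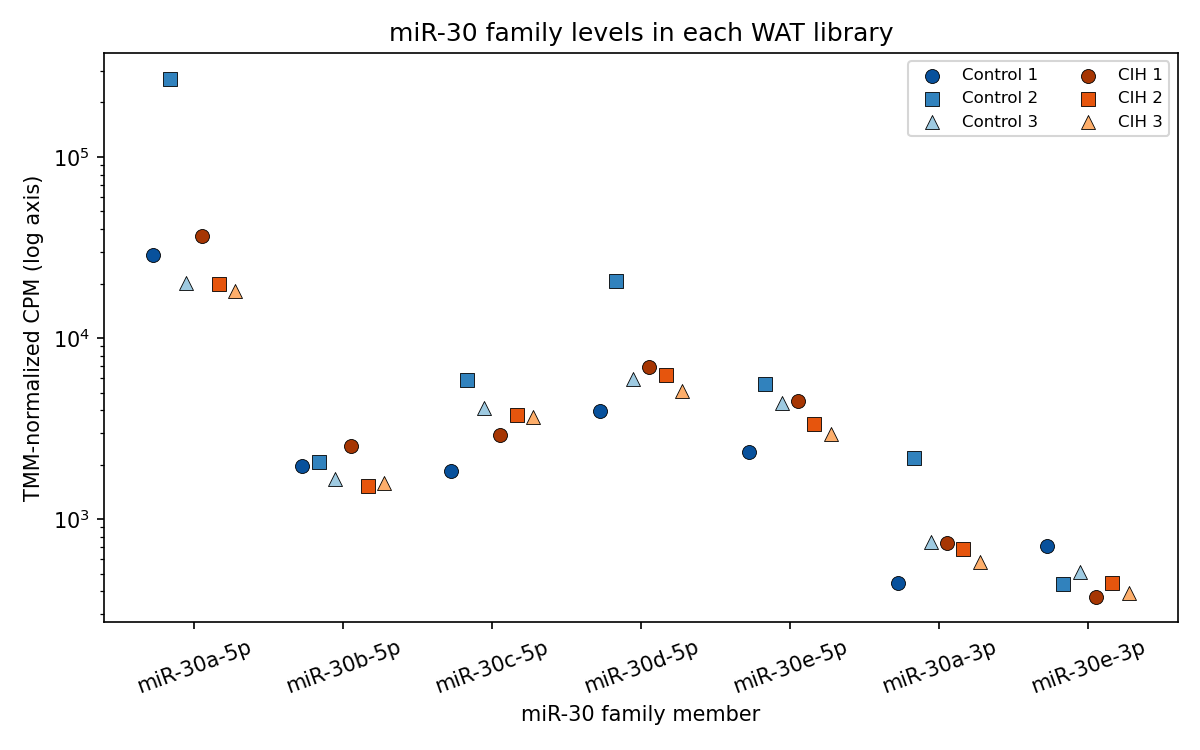
TMM-normalized CPM on a log axis of the 7 members of the miR-30 family in each of the 6 libraries (blue, control; orange, CIH; 1 point per library). For miR-30a-5p the control 2 library, at 270053 CPM, stands apart from the other 5, which lie between 18140 and 36650 CPM, and the groups overlap for all 7 members.

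miR-30d-5p and miR-30a-3p followed miR-30a-5p in their order of libraries only in part. miR-30d-5p had 3952, 20582 and 5914 CPM in the controls and 6929, 6241 and 5115 CPM in the CIH libraries. miR-30a-3p, the less abundant arm of Mir30a, had 441, 2165 and 747 CPM in the controls and 741, 680 and 578 CPM in the CIH libraries. Both were highest in control 2, by 2.97-fold and 2.90-fold over the next library, and lowest in control 1. The CIH libraries lay within the range of the controls in both cases.

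The other 5p members varied less. miR-30c-5p had 1835, 5868 and 4090 CPM in the controls and 2920, 3760 and 3647 CPM in the CIH libraries. miR-30e-5p had 2356, 5577 and 4358 CPM in the controls and 4487, 3357 and 2962 CPM in the CIH libraries. For both, control 1 was the lowest library and control 2 the highest, and every CIH library lay between them. miR-30b-5p had 1970, 2058 and 1666 CPM in the controls and 2531, 1523 and 1582 CPM in the CIH libraries, a range of 1.66-fold over all 6 with CIH 1 the highest. miR-30e-3p had 712, 439 and 507 CPM in the controls and 373, 445 and 392 CPM in the CIH libraries. These 2 members were the ones that were not highest in control 2, and miR-30e-3p was highest in control 1.

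Ordered by the geometric mean over the 6 libraries, miR-30a-5p came first with 35716 CPM, followed by miR-30d-5p (6884), miR-30e-5p (3697), miR-30c-5p (3476), miR-30b-5p (1858), miR-30a-3p (769.7) and miR-30e-3p (467). The 5 with a printed sequence are 22 or 23 bases long, so these levels were not divided by length. miR-30a-5p exceeded miR-30d-5p, and miR-30d-5p exceeded miR-30e-5p, in 6 of 6 libraries. miR-30e-5p and miR-30c-5p did not differ beyond their spread: the mean log2 ratio was 0.09 ± 0.35 (SD, n = 6), and miR-30e-5p was the higher in 3 of 6 libraries. The remaining 3 neighbours kept their order in 5 of 6 libraries each. Of these, miR-30a-3p exceeded miR-30e-3p by a mean log2 ratio of 0.72 ± 0.96 (SD, n = 6), which is less than the spread.

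The first comparison asked whether CIH changed the level of any member. No member was called. edgeR's quasi-likelihood test, fitted to the 633 miRNAs with at least 10 counts in all, gave 0 of 7 members with a Benjamini-Hochberg adjusted p under 0.05, where the share over all miRNAs tested was 0% as well. At an unadjusted p under 0.05 with a change of at least 1.5-fold, the rule called 0 of 7 members and 2.53% of all miRNAs tested. The groups overlapped for all 7 members, beside a share of 8.06% of all miRNAs tested with groups apart from each other. All 7 fitted log2 fold changes were below 0, with a median of -0.46 beside 0.07 over all miRNAs tested.

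The most negative fitted value was that of miR-30a-5p. Controls averaged 106374 ± 141815 CPM (SD, n = 3) and CIH libraries 24866 ± 10240 CPM (SD, n = 3). The log2 fold change, CIH against control, was -2.10, with a standard error of 1.19 and a 95% interval of -4.95 to 0.76 (adjusted p = 0.882, edgeR quasi-likelihood test). Without control 2 the log2 fold change was 0.08, with an interval of -1.79 to 1.94, so both the size and the sign of the value rested on that library. In that fit 0 of 7 members met the rule of unadjusted p and fold, where 3.16% of all miRNAs tested did. Without control 3 it was -2.59, with an unadjusted p of 0.0457 and an adjusted p of 0.128 in edgeR's test. In that fit 1 of 7 members met the rule of unadjusted p and fold, where 37.6% of all miRNAs tested did, and 0 of 7 had an adjusted p under 0.05, where 18.6% did.

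miR-30d-5p and miR-30a-3p had log2 fold changes of -0.74 (interval -2.68 to 1.21) and -0.75 (interval -2.56 to 1.06). The values for miR-30c-5p and miR-30e-5p were both -0.19, and that of miR-30b-5p was -0.01. For miR-30e-3p the log2 fold change was -0.46 (interval -1.75 to 0.84). The adjusted p-values of the 7 members from edgeR's test lay between 0.882 and 0.994. Each interval includes a change of 1.5-fold in either direction, so a change of that size could not be told from none with these libraries, and the result does not show that the levels were equal. Without control 2 the 6 members other than miR-30e-3p had values above 0, and the median of the 7 moved to 0.17, while the median over all miRNAs moved to 0.28.

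**Figure D2:**
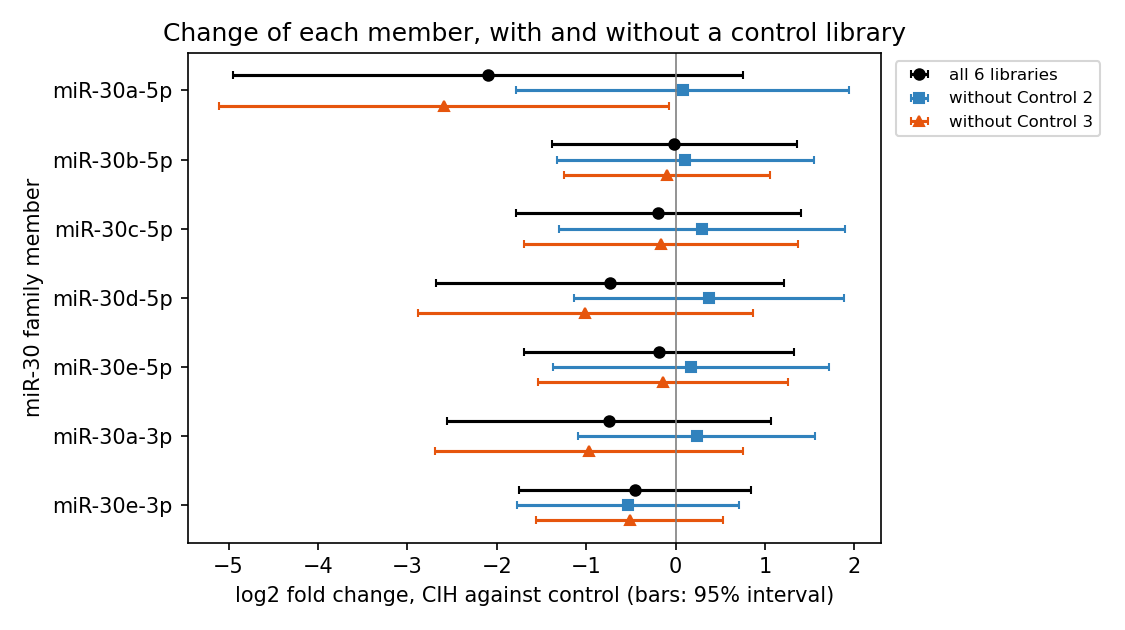
Log2 fold change of each member (CIH against control, edgeR) with its 95% interval, from all 6 libraries (black), without control 2 (blue) and without control 3 (orange). The value for miR-30a-5p moves from -2.10 to 0.08 without control 2 and to -2.59 without control 3, and only the last interval lies below 0.

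The spread of miR-30a-5p was the widest of the family in each group. Its SD was 133% of the mean among controls and 41.2% among CIH libraries. For the 204 miRNAs that averaged 100 CPM or more, the median of this relative SD was 83.9% among controls and 26.1% among CIH libraries. miR-30b-5p went the other way, with 10.8% among controls and 30.1% among CIH libraries, and 1.47% of those miRNAs had a lower relative SD among controls. Of the 204 miRNAs, miR-30a-5p ranked 6 by its log2 excess in control 2 over the median of the other libraries, which was 3.74 beside a median of 0.02. The same excess was 1.80 for miR-30d-5p, 1.67 for miR-30a-3p and 0.30 for miR-30b-5p.

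The share of the whole family in the miRNA pool was largest and smallest in the same libraries as that of miR-30a-5p, control 2 and control 1, while the other 4 libraries came in another order. The 7 members together took 2.31%, 26.6% and 5.25% of the counts of controls 1, 2 and 3, and 4.31%, 4.49% and 4.69% of the CIH libraries. Control 1 had the smallest share and control 2 the largest, with the CIH libraries between them and close to each other. The group means were 11.4% ± 13.2 (SD, n = 3) for controls and 4.50% ± 0.191 (SD, n = 3) for CIH. The difference of -6.88 percentage points gave p = 0.7 in a two-sided exact permutation test (adjusted p = 0.8 over the 8 exact tests made), where the smallest p that 3 libraries against 3 allow is 0.1. Without control 2 the difference was 0.719 percentage points. The 6 members other than miR-30a-5p took 0.648%, 3.18% and 2.42% of the control libraries and 1.42%, 2.01% and 2.07% of the CIH libraries.

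Because the 5p members share a seed, their make-up was compared within each library, where the scaling of libraries drops out. miR-30a-5p was 74.0%, 88.8% and 55.8% of the summed 5p counts in the controls and 68.5%, 57.1% and 57.7% in the CIH libraries. Control 3, CIH 2 and CIH 3 were alike in this share, and control 1 and CIH 1 lay between them and control 2. Controls averaged 72.9% ± 16.5 (SD, n = 3) and CIH libraries 61.1% ± 6.41 (SD, n = 3) (two-sided exact permutation test, p = 0.4, adjusted p = 0.8). Without control 2 the difference of -11.8 points was -3.84 points, and without control 3 it was -20.3 points. miR-30d-5p was the second largest part in every library, with 6.77% to 16.3% in the controls and 12.9% to 18.0% in the CIH libraries (same exact test, p = 0.3). miR-30c-5p made up 4.71%, 1.93% and 11.3% in the controls and 5.46%, 10.8% and 11.6% in the CIH libraries (same exact test, p = 0.3). miR-30e-5p ranged from 1.83% to 12.0% in the controls and from 8.38% to 9.68% in the CIH libraries, and miR-30b-5p from 0.677% to 5.06% and from 4.39% to 5.03% (same exact test, p = 0.6 and p = 0.7). Without control 2 and without control 3 in turn, the difference was 2.51 and 7.27 points for miR-30d-5p, 1.30 and 5.98 points for miR-30c-5p and 0.129 and 5.22 points for miR-30e-5p. For miR-30b-5p it was -0.108 and 1.85 points. The adjusted p was 0.8 for all 5 shares, and the groups overlapped in each.

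**Figure D3:**
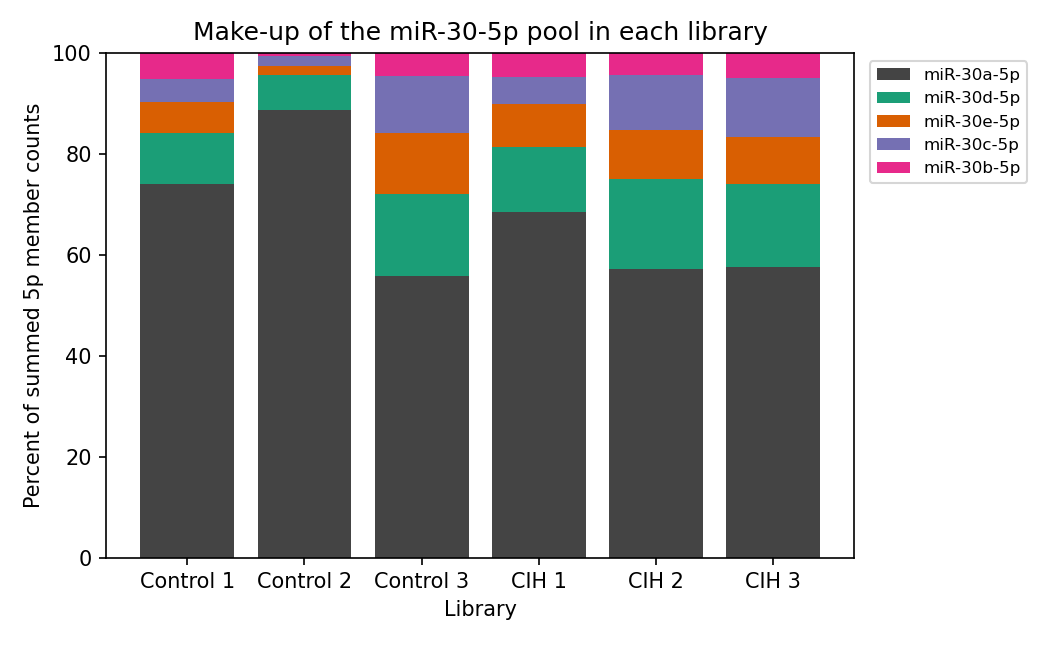
Share of each of the 5 5p members in their summed counts, in percent, as stacked bars for each library. miR-30a-5p takes 88.8% of the bar of control 2 and between 55.8% and 74.0% of the other bars, and miR-30d-5p is the next largest part in every bar.

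The 2 arms of a hairpin are made together, so the ratio of 3p to 5p counts describes the arm balance apart from the level of the hairpin. For miR-30a, the 3p arm was 1.51% (95% Wilson interval 1.36 to 1.68), 0.795% (0.779 to 0.812) and 3.56% (3.33 to 3.80) of both arms in the controls. It was 1.98% (1.86 to 2.11), 3.32% (3.07 to 3.58) and 3.09% (2.84 to 3.36) in the CIH libraries. The 5p arm thus exceeded the 3p arm by between 27.1-fold in control 3 and 125-fold in control 2. Control 3 lay with CIH 2 and CIH 3, and control 1 lay nearest to CIH 1. The log2 ratio of 3p to 5p averaged -5.92 ± 1.10 (SD, n = 3) over controls and -5.15 ± 0.41 (SD, n = 3) over CIH libraries. The difference of 0.76 gave p = 0.4 in a two-sided exact permutation test (adjusted p = 0.8).

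For miR-30e the 3p arm was a larger part of the pair. It was 23.2% (95% Wilson interval 21.6 to 24.9), 7.30% (6.99 to 7.63) and 10.4% (9.64 to 11.3) of both arms in the controls. The CIH libraries had 7.68% (7.04 to 8.38), 11.7% (10.7 to 12.8) and 11.7% (10.6 to 12.9). Control 1 was the library that stood apart here, with the 5p arm 3.31-fold above the 3p arm, while the other 5 libraries had 7.54-fold to 12.7-fold. The log2 ratio averaged -2.83 ± 0.998 (SD, n = 3) over controls and -3.14 ± 0.39 (SD, n = 3) over CIH libraries (two-sided exact permutation test, p = 0.9, adjusted p = 0.9). The difference of -0.31 changed sign, to 0.24, without control 1.

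**Figure D4:**
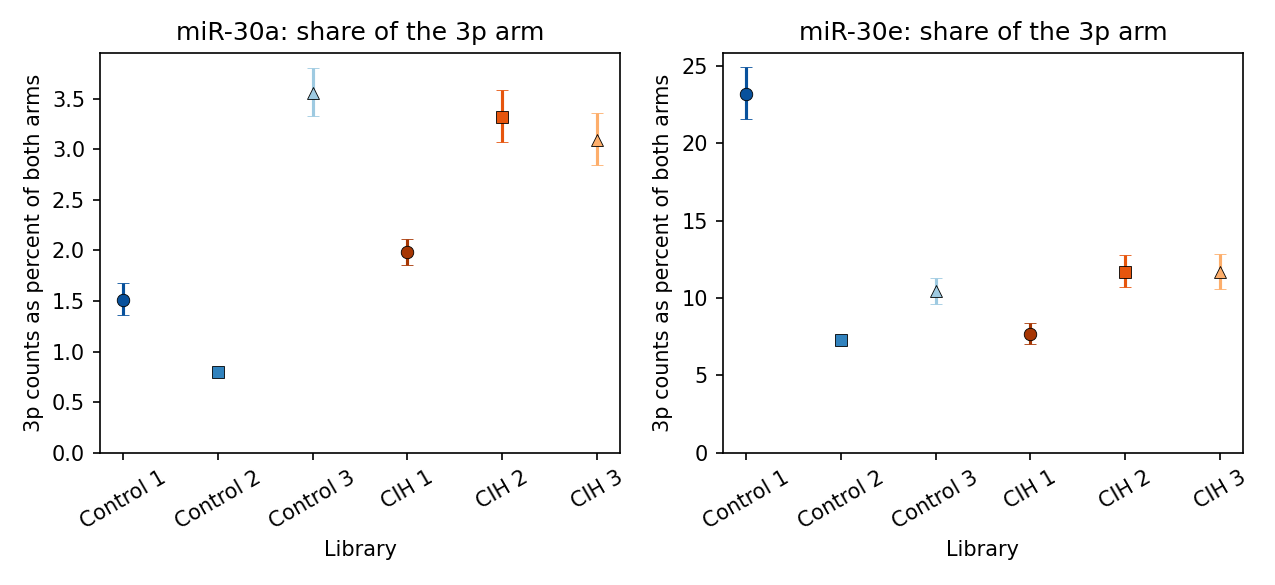
Counts of the 3p arm as a percent of both arms for miR-30a (left) and miR-30e (right) in each library, with 95% Wilson intervals for counting error. For miR-30a the lowest point is control 2 at 0.795%, and for miR-30e the highest is control 1 at 23.2%.

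Ratios between members within a library show which of them moved together. The 21 pairs of members were compared by the SD of their log2 ratio over the 6 libraries, and the pairs described here were picked after these values were seen. The steadiest pair was miR-30d-5p with miR-30a-3p, which come from different hairpins. Their ratio was 8.95, 9.51 and 7.91 in the controls and 9.35, 9.18 and 8.85 in the CIH libraries, a log2 ratio with an SD of 0.09 (n = 6). Over the same libraries the level of each ranged 5.21-fold and 4.90-fold. These levels ranged only 1.75-fold and 1.69-fold without control 2, where the SD of the log2 ratio was also 0.09. The counting error of the log2 ratio ran from 0.02 to 0.08 per library, and the SD between libraries was 0.09. As a background served the 172 miRNAs that averaged 100 CPM or more and had counts in every library. Among the 14706 pairs they form, 0.0272% were as steady, and the median SD was 1.49.

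The arms of Mir30a did not hold such a ratio: miR-30a-5p to miR-30a-3p had an SD of 0.85 on the log2 scale, and miR-30a-5p to miR-30d-5p one of 0.80. miR-30a-5p kept a near constant ratio to miR-30b-5p in every library but control 2. The ratio was 14.6 and 12.2 in controls 1 and 3 and 14.5, 13.0 and 11.5 in the CIH libraries, with an SD of 0.15 on the log2 scale (n = 5), and it was 131 in control 2. Over all 6 libraries the SD of this ratio was 1.36. Without control 2, 0.456% of the 14706 pairs were as steady, beside a median SD of 1.11. Control 2 was left out for this pair with its ratio known, so that share is a description and not a test. Within the family miR-30e-5p to miR-30a-3p was steadier without control 2, with an SD of 0.12. miR-30c-5p and miR-30e-5p, whose hairpins Mir30c-1 and Mir30e both lie in Nfyc, had the next steadiest ratio of the family over all 6 libraries, with an SD of 0.35. That ratio was 0.779, 1.05 and 0.939 in the controls and 0.651, 1.12 and 1.23 in the CIH libraries. Its place rested on control 2, without which its SD was 0.38. Other pairs were then steadier, such as miR-30d-5p to miR-30e-5p (0.17) and miR-30c-5p to miR-30d-5p (0.34). A link to the shared gene was not tested. The 1-base neighbours miR-30a-5p and miR-30e-5p were far from constant: their ratio was 12.2, 48.4 and 4.65 in the controls and 8.17, 5.90 and 6.12 in the CIH libraries.

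**Figure D5:**
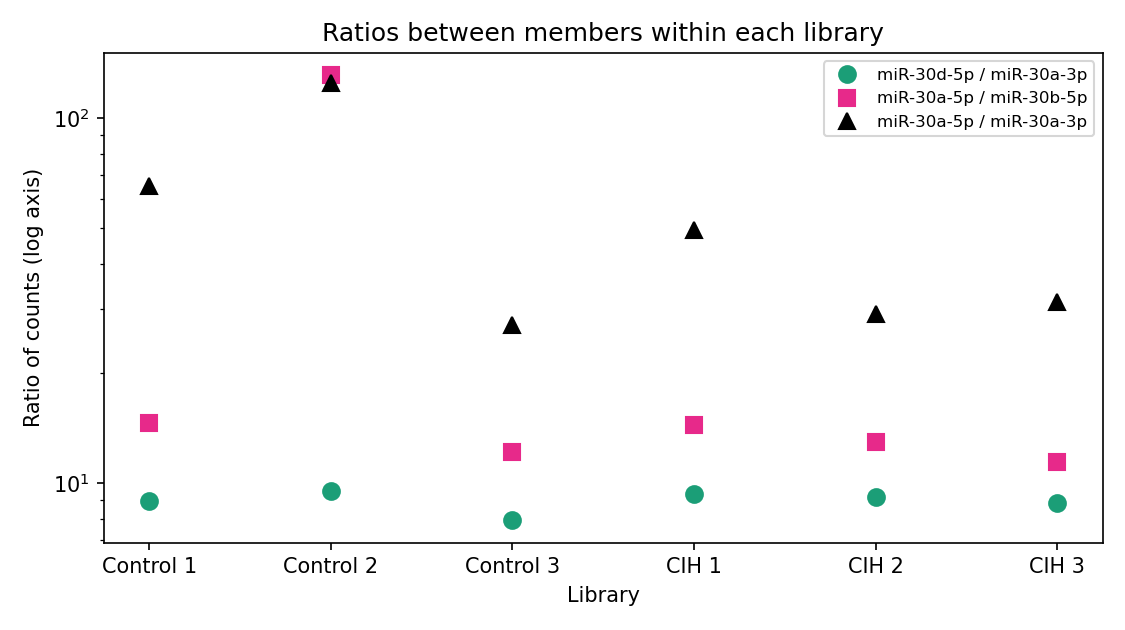
Ratio of counts between 2 members on a log axis in each library, for miR-30d-5p to miR-30a-3p (circles), miR-30a-5p to miR-30b-5p (squares) and miR-30a-5p to miR-30a-3p (triangles). The circles stay between 7.91 and 9.51, the squares leave the range of 11.5 to 14.6 only in control 2, and the triangles range from 27.1 to 125.

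Outside the family, the pattern most like the mean of the 7 members was sought among the 197 other miRNAs that averaged 100 CPM or more. The likeness was Pearson's correlation of log2 CPM over the 6 libraries, given as a description, since the points share their libraries. The 2 closest were MIMAT0003172 (0.997) and MIMAT0000766 (0.983). The likeness without control 2, where 5 of the 7 members were highest, was not computed. No table used here gives a name for these accessions, so the 2 miRNAs are left unnamed. For the same reason the levels of miRNAs typical of fat cells, blood, muscle or pancreas were not analysed, and whether other cell types moved with control 1 or control 2 was not tested. In bulk tissue, fewer cells of a type and less RNA per cell cannot be told apart.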

How the data were processed

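The deposited values were raw read counts of 707 mature miRNAs in 6 small RNA libraries, 3 per group, which the authors did not normalize. Aligner, miRNA database release and handling of multiply matching reads are not given in the sources used here. Libraries were grouped by their labels. In a chi-square comparison of each of the 15 pairs of libraries, no pair was alike within counting error, so no library repeats the counts of another. The comparison cannot tell separate mice from repeat libraries of 1 mouse. Each library was counted as 1 sample. The labels name no animal for a library.

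Members and lists were chosen with earlier results of these data known. The 633 miRNAs with at least 10 summed counts were tested with edgeR 4.0.16 (TMM, quasi-likelihood, group as the only term, Benjamini-Hochberg adjustment) in R 4.3.3, after a trial on simulated data. Alternatives used DESeq2 1.42.0 and limma 3.58.1. DESeq2 gave no p-value for miR-30a-5p, so its counts of members called do not cover that member. Ratios and shares were compared by exact permutation tests in scipy 1.17.1 (Python 3.11.15). Levels are given for the 7 members, and the miRNAs most like their mean are left unnamed. The planned lists of cell type markers and of other adipogenesis miRNAs, and the other arms of the miR-30 hairpins, were not analysed here, because names and accessions are not paired in the files used. Sequences are from RefSeq on GRCm38.p6 and genes from GENCODE release M21; miR-30b-5p and miR-30d-5p are named without a sequence.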

Additional observations from a re-analysis of the deposited data

How the results depend on the processing

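No member had an adjusted p under 0.05 in any alternative run, though DESeq2 gave miR-30a-5p no p-value. At an unadjusted p under 0.05 with 1.5-fold the count was 0 in all but 1. Fits without 1 library gave 0 to 1, the 1 being miR-30a-5p without control 3 (log2 fold change -2.59). The lowest and highest log2 fold changes over those fits were -2.59 and 0.0787 for miR-30a-5p, -0.25 and 0.12 for miR-30b-5p, -0.51 and 0.30 for miR-30c-5p, -1.13 and 0.38 for miR-30d-5p, -0.44 and 0.17 for miR-30e-5p, -1.13 and 0.24 for miR-30a-3p, and -0.53 and -0.20 for miR-30e-3p. Without control 2, 6 members changed sign: miR-30a-5p to 0.0787, miR-30b-5p to 0.11, miR-30c-5p to 0.30, miR-30d-5p to 0.38, miR-30e-5p to 0.17 and miR-30a-3p to 0.24. miR-30b-5p, at -0.01 with all libraries, also changed sign without control 1 (0.03), CIH 2 (0.12) or CIH 3 (0.10), with library totals (0.24), with at least 10 counts in every library (0.12) and with library totals without miR-30a-5p (0.12), a setting chosen after seeing the data. Library totals moved the median of all miRNAs from 0.07 to 0.33 and turned miR-30c-5p to 0.0523. Library sizes without the 5 most abundant other miRNAs moved that median to 0.53 and gave miR-30b-5p 0.49, miR-30c-5p 0.32, miR-30e-5p 0.27 and miR-30e-3p 0.0695. Under these last 2 scalings the members named stayed below the median of all miRNAs. Upper-quartile factors moved the median to -0.52 and gave miR-30a-5p -2.94, miR-30b-5p -0.66, miR-30c-5p -0.83, miR-30d-5p -1.49, miR-30e-5p -0.81, miR-30a-3p -1.48 and miR-30e-3p -1.08. miR-30a-5p was at -1.23 without the 5 most abundant others and at -1.13 with limma voom. The cause was not tested.

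The difference in the arm balance of miR-30e was -0.73 to 0.24 when single libraries were dropped, and reversed without control 1 (0.24), and that of miR-30a ran from 0.24 to 1.34. The difference in family share ran from -11.4 to 0.719 percentage points and reversed without control 2. The difference in the share of miR-30b-5p in the 5p counts ran from -0.108 to 2.08 points and reversed without control 2 (-0.108). Among the 4 5p members other than miR-30a-5p, a setting added after seeing the data, the difference of miR-30d-5p reversed to -4.97 points.

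Libraries of the 2 groups carry replicate numbers 1 to 3 alike. The correlation of the deviations within a number was 0.353 for replicate 1, -0.116 for replicate 2 and 0.0195 for replicate 3, and 2 of 6 libraries correlated best with their own number, which gives no ground for pairing. A fit with the replicate block gave miR-30a-5p a log2 fold change of -1.03 and turned no member's sign. It called 0 members and 3 of all miRNAs, or 0.474% (16 without the block, or 2.53%).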
